A study of Homo sapiens with 6 samples.

Results

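The 40 genes described here encode enzymes of the lysosome, their activator proteins, proteins of the lysosomal membrane, progranulin and the transcription factors TFEB and TFE3. They were chosen by name from a table of 28307 genes, by matching the table's Entrez identifiers to NCBI symbols, and all 40 were found. The list was put together with earlier results of these data known. Their RNA was measured by sequencing of total RNA in OCI-AML3, an established cell line from human acute myeloid leukaemia with a mutant allele of NPM1 (NPM1c). Cells were transfected with Lipofectamine RNAi MAX and either a control siRNA (siControl) or an siRNA against NPM1c (siNPM1c), each at 10 nM, and were collected after 3 days. Each group held 3 libraries. All libraries carry the genotype label WT and the same batch label, and nothing in the labels says that replicates were separate cultures, so the p-values measure a spread that may be only technical. In bulk RNA, fewer cells that express a gene and less of its RNA per cell cannot be told apart.

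Lysosomes are acidic organelles in which proteins, glycans, lipids and nucleic acids are broken down by soluble hydrolases. Most of these enzymes are tagged in the Golgi with mannose 6-phosphate and carried to the organelle by receptors. The basic helix-loop-helix factors TFEB and TFE3 bind E-boxes of the CLEAR type in promoters of lysosomal genes, and are held in the cytoplasm by mTORC1 when nutrients are plentiful. Monocytes and macrophages hold many lysosomes, and several members of the list are also used in the processing of antigens.

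Total counts per library ran from 15075235 to 25190122, but structural RNA (mostly ribosomal RNA) took 69.5% to 70.5% of them in the siControl libraries and 76.4% to 77.5% in the siNPM1c libraries, which left 3414600 to 6695447 counts for protein-coding genes. NPM1, the target, was lower in the siNPM1c libraries by 1.10 on the log2 scale (SE 0.05, adjusted p = 5.82e-51 by edgeR's quasi-likelihood test). This count covers the whole gene and does not tell RNA of the mutant allele from other NPM1 RNA. Levels are given as CPM, the count relative to a library size scaled by TMM so that most genes are level. Adjusted p-values come from the same edgeR test, with the Benjamini-Hochberg method over all 12938 genes tested, a gene counts as called under 0.05, and every log2 fold change is siNPM1c minus siControl.

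The 40 lysosomal genes, put together with earlier results of these data known, were more often higher than lower after the NPM1c siRNA. The shares given here hold for this list and not for lysosomal genes at large. Of 31 other lysosomal enzymes and cofactors tested, 4 rose and 3 fell. Of the 40, 38 passed the filter on low counts, and 16 of these rose and 4 fell, while 18 were not called. The called members were 52.6% of those tested, against 42.7% of all genes tested. The share that rose was 42.1% against 21.3% of all genes, and the share that fell was 10.5% against 21.4%. Groups did not overlap for 23 members (60.5%, against 49.2% of all genes), 17 of them higher and 6 lower. Over all genes tested, 24.3% had groups apart and were higher. The median log2 fold change of the 38 was 0.09, beside -0.01 over all genes tested. The changes were mostly under 1.5-fold, with a range from -0.35 for CTSC to 1.05 for CTSL.

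Summed over the 40 genes, the level was 1937, 1950 and 1914 CPM (siControl) and 2299, 2277 and 2226 CPM (siNPM1c). The genes GRN, CTSB, GAA and CTSD made up 85.0% of the difference between the group means of this sum. Without these 4 genes the sum ran from 946 to 976 CPM in the siControl libraries and from 991 to 1030 CPM in the siNPM1c libraries. LGMN, the asparaginyl protease legumain, and ACP5, the tartrate-resistant acid phosphatase of osteoclasts and macrophages, did not pass the filter, with 0 to 2 and 1 to 3 counts per library.

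**Figure D1:**
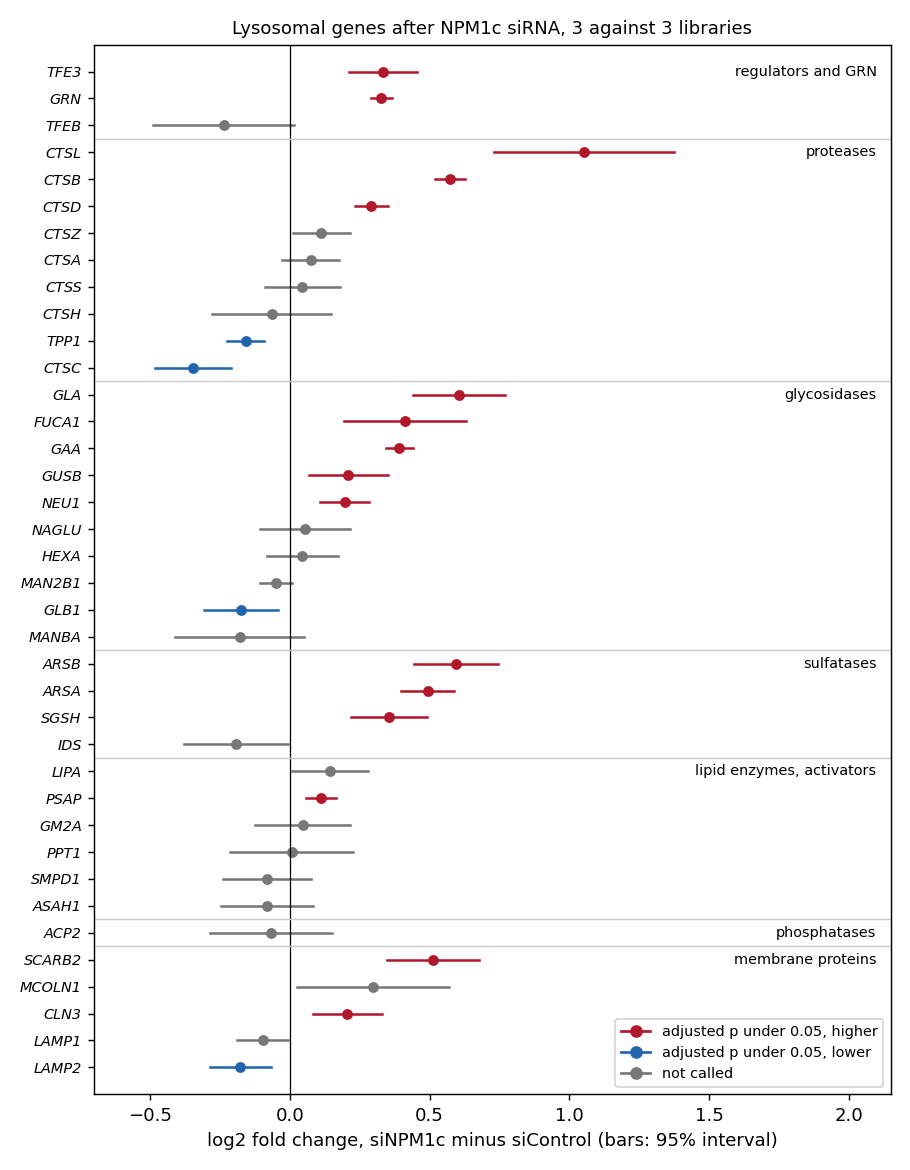
Log2 fold change (siNPM1c minus siControl, horizontal axis) of the 38 tested lysosomal genes, grouped by role, with 95% intervals of 1.96 standard errors as bars. Red points are the 16 genes that rose, blue points the 4 that fell and grey points the 18 that were not called.

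Directions hold relative to TMM scaling. With library sizes alone, where structural RNA is part of the depth, the median of all genes moved to -0.48 and that of the lysosomal genes to -0.38, with 2 members higher and 28 lower. CTSB and CTSL were the 2 that stayed called as higher. Members were also richer in G and C than other genes, with a median transcript GC content of 54.9% against 50.9% for all tested genes, and the fold changes of all genes followed GC content. With genes cut into 5 equal bins of GC content, the median log2 fold change over all genes was -0.22 in the lowest bin and 0.09 in the highest, where the 12 members had a median of 0.25. With each library's trend with GC content taken out, 15 members were higher and 7 lower, beside 2531 and 2552 of all genes then tested. The share of members that fell was then close to that of all genes. In 18 alternative settings other than library sizes alone, 15 of the 20 called members kept their call in every setting that tested them, 13 higher and 2 lower.

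**Figure D2:**
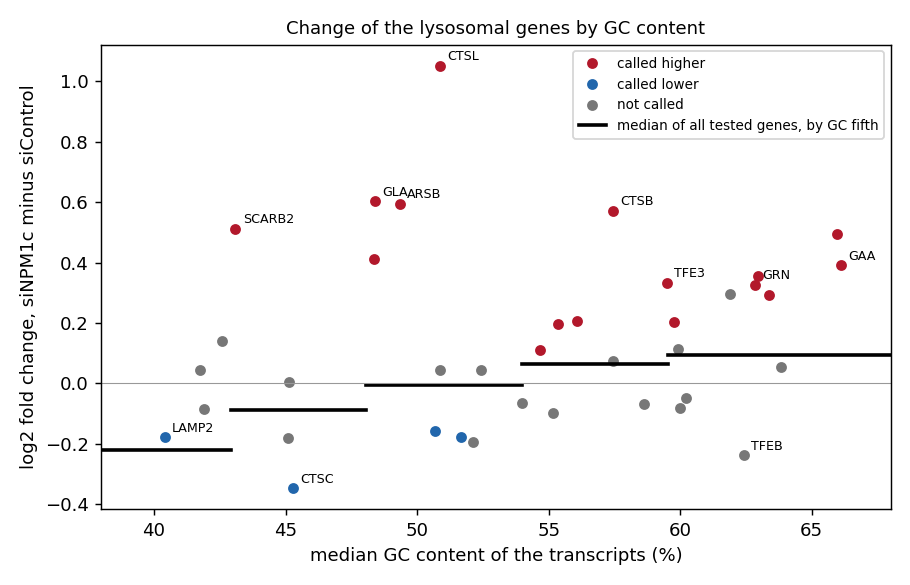
Log2 fold change (siNPM1c minus siControl) of the 38 lysosomal genes against the median GC content of their transcripts, with the median of all tested genes in each of 5 GC bins as black lines. The lines climb from -0.22 to 0.09, and CTSL, GLA, ARSB, SCARB2 and CTSB lie furthest above them.

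Among the regulators, TFE3 rose and TFEB was not called. TFE3 (Entrez gene 7030, chromosome X, 49028726 to 49043357 on GRCh38.p14) stood at 24.0, 22.8 and 21.8 CPM (siControl) and 31.0, 28.6 and 26.9 CPM (siNPM1c). The groups did not overlap, and TFE3 rose 1.26-fold (log2 0.33, SE 0.06, adjusted p = 1.54e-06). TFEB, which had less RNA per transcript length than TFE3 in the siControl libraries, stood at 5.89, 6.48 and 6.78 CPM (siControl) and 6.24, 5.65 and 4.39 CPM (siNPM1c). Its groups overlapped, through siNPM1c replicate 1, and its log2 fold change of -0.24 (SE 0.13, 95% interval -0.49 to 0.01) had an adjusted p of 0.127. With the GC correction TFEB was called as lower (-0.33, adjusted p = 0.0306), and without siNPM1c replicate 3 its value was -0.11 (adjusted p = 0.558). MITF and TFEC, the other factors of this family, did not pass the filter on low counts. MITF was counted 2, 8 and 7 times (siControl) and 14, 16 and 10 times (siNPM1c), and TFEC 0, 0 and 1 times and 6, 7 and 8 times. In CPM both were higher in every siNPM1c library than in any siControl library, with no test.

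GRN encodes progranulin, a secreted and lysosomal glycoprotein that is cut into granulins and is made in quantity by myeloid cells. GRN (Entrez gene 2896, chromosome 17, 44345302 to 44353106) had 564, 552 and 522 CPM (siControl) and 694, 689.7 and 670.0 CPM (siNPM1c). Every siNPM1c library lay above every siControl library, and GRN rose 1.25-fold (log2 0.33, SE 0.02, adjusted p = 9.53e-39). GRN also had the highest level per length of the 40 genes in the siControl libraries, at 933 CPM per kilobase over the median length of its coding transcripts and 233 CPM per kilobase over the longest. By either length the next 5 were CTSB, GAA, CTSD, MAN2B1 and PSAP in changing order, and LGMN and ACP5 were last.

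The promoters of these genes were examined for the E-box that TFEB and TFE3 bind, since both the factors and their known targets are on the list. RefSeq promoters (GRCh38.p14, 250 bases before to 50 after a start) were at hand for 29 of the 40 genes. LGMN, SGSH, HEXA, NAGLU, CTSB, CTSS, LAMP2, ARSA, PSAP, MANBA and ASAH1 had no entry. For the E-box, the letters searched were CACGTG and TCACGTGA, each of which reads the same on both strands, and the second of which holds the first. Known targets of these factors are on the list, so a share above that of all genes was built in and is no test. CACGTG was found in 9 of the 29 genes (31.0%), against 7.26% of the 35116 promoters of all genes and 8.77% of genes with any promoter. TCACGTGA was found in 5 of 29 (17.2%), against 0.98% of promoters and 1.18% of genes. With a further G before and C after it, the element was found in 2 of 29 (6.9%), GAA and MCOLN1, against 0.353% of promoters and 0.421% of genes. The 5 genes with TCACGTGA are shown because they set the element beside log2 fold changes from -0.10 (LAMP1) to 0.39 (GAA). Each stretch runs 5′ to 3′ on the gene's strand, from 20 bases before the first copy, and capitals mark TCACGTGA.
GAA, chr17:80101484-80101576, plus strand: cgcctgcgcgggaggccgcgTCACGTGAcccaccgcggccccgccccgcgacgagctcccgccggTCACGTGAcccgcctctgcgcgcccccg
MCOLN1, chr19:7522562-7522623, plus strand: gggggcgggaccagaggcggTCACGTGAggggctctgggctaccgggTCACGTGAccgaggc
LAMP1, chr13:113297190-113297244, plus strand: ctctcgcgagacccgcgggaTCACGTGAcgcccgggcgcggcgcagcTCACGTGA
CTSA, chr20:45891289-45891334, plus strand: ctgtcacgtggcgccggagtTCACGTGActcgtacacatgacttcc
CLN3, chr16:28492069-28492096, minus strand: gggggaacacgcgggtgctgTCACGTGA

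Members with the element had unlike values. Of the 5 genes shown, GAA (log2 fold change 0.39) and CLN3 (0.21) rose, while MCOLN1 (0.30), LAMP1 (-0.10) and CTSA (0.07) were not called. MCOLN1, though not called, thus had a larger value than CLN3, and differences between these genes were not tested. Of the 8 tested members with CACGTG, 5 rose (CLN3, CTSD, GAA, ARSB and NEU1) and 0 fell (median log2 fold change 0.25). Of the 20 tested members with a promoter but without CACGTG, 7 rose and 3 fell, with a median of 0.03. Over all tested genes with a promoter, 21.4% of the 1288 with CACGTG rose and 20.8% of the 8907 without it. For TCACGTGA these shares were 22.2% of 230 and 20.8% of 9965. The shares that fell were 22.3% with CACGTG and 22% without it, and 23.5% with TCACGTGA and 22% without it. These counts are descriptions, and a match is not evidence that a factor was bound. GC content was not matched, and the 12 members in the highest GC bin also had a median of 0.25.

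Among the 9 tested proteases, CTSB, CTSD and CTSL rose and CTSC and TPP1 fell. Over all tested genes 21.3% rose and 21.4% fell. CTSB encodes cathepsin B, a cysteine protease (chromosome 8, 11842524 to 11868087). Its level was 125, 127 and 130.3 CPM (siControl) and 187, 191 and 190.4 CPM (siNPM1c). The groups of CTSB were apart, and it rose 1.49-fold (log2 0.57, SE 0.03, adjusted p = 3.52e-52). CTSD, the aspartic protease cathepsin D, stood at 114, 111 and 114 CPM against 140.1, 138 and 135 CPM, and rose 1.22-fold (log2 0.29, SE 0.03, adjusted p = 1.53e-17).

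CTSL, the cysteine protease cathepsin L, had the largest fold change of the list at a low level. It was counted 38, 66 and 51 times in siControl replicates 1 to 3 and 61, 107 and 78 times in siNPM1c replicates 1 to 3, or 2.11, 2.39 and 2.75 CPM against 4.59, 5.13 and 5.27 CPM. The groups did not overlap, and CTSL was 2.07-fold higher (log2 1.05, SE 0.16, adjusted p = 9.31e-09).

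CTSC encodes cathepsin C, the dipeptidyl peptidase that activates the serine proteases of myeloid granules. It stood at 21.6, 22.2 and 24.1 CPM (siControl) and 17.8, 18.4 and 16.9 CPM (siNPM1c), and fell by 0.35 on the log2 scale (SE 0.07, adjusted p = 9.23e-06). TPP1, the tripeptidyl peptidase lost in a childhood form of neuronal ceroid lipofuscinosis, went from 96.1, 97.2 and 99.2 CPM to 87.5, 89.4 and 84.6 CPM. TPP1 fell by 0.16 (SE 0.03, adjusted p = 2.99e-05). For both genes every siNPM1c library lay below every siControl library. Their direction was thus opposite to that of CTSB, CTSD and CTSL in the same libraries.

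Of the remaining proteases, CTSZ, a carboxypeptidase, had separate groups (34.6 to 37.9 CPM against 38.02 to 39.6 CPM) but an adjusted p of 0.0653 for a log2 fold change of 0.11 (SE 0.05). It was called as higher with protein-coding genes only (0.13, adjusted p = 0.0369) and without siControl replicate 3 (0.15, adjusted p = 0.0303), but its value was 0.033 with the GC correction (adjusted p = 0.643) and 0.074 without siControl replicate 2 (adjusted p = 0.336). CTSA, the protective protein of the galactosidase and neuraminidase complex, had a log2 fold change of 0.07 (95% interval -0.03 to 0.18), CTSS, a cysteine protease of antigen processing, 0.05 (-0.09 to 0.18) and CTSH, an aminopeptidase, -0.07 (-0.28 to 0.15). These intervals leave out changes of the size seen for CTSB. CTSS, whose transcripts are poor in G and C (41.8%), was called as higher with the GC correction (0.21, adjusted p = 0.00735).

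**Figure D3:**
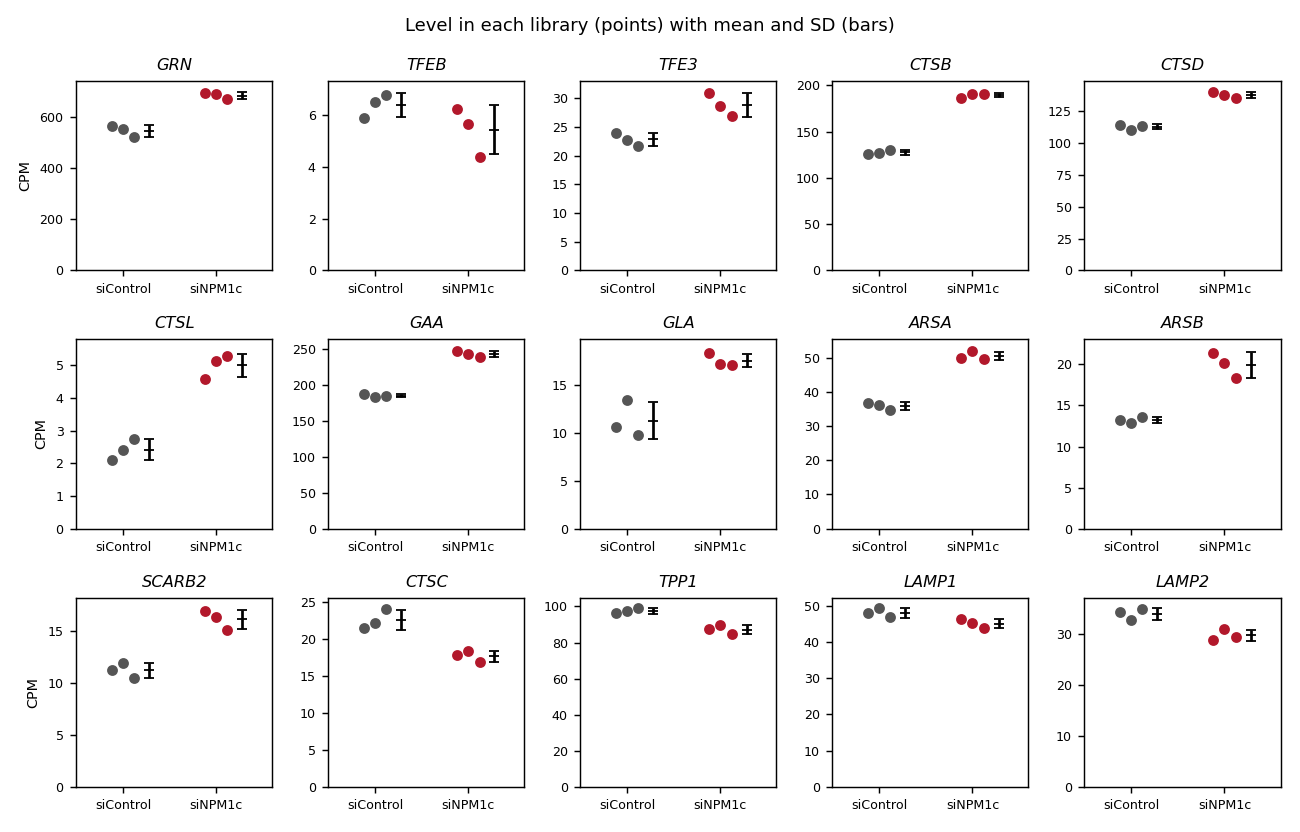
Level in CPM (vertical axes, from 0) of 15 lysosomal genes in each siControl (grey) and siNPM1c (red) library, with the mean and SD of 3 libraries as black bars. The groups are apart for all genes shown except TFEB, where siNPM1c replicate 1 lies among the siControl libraries.

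Glycosidases, which take glycans and glycolipids apart one sugar at a time, held 5 genes that rose and 1 that fell among 10 tested. Over all tested genes 21.3% rose and 21.4% fell. GAA, the acid alpha-glucosidase that degrades glycogen and is deficient in Pompe disease, had the highest level per length of the glycosidases in the siControl libraries. GAA (chromosome 17, 80101581 to 80119881) stood at 188, 184 and 184 CPM (siControl) and 248, 243 and 239 CPM (siNPM1c), and rose 1.31-fold (log2 0.39, SE 0.02, adjusted p = 1.22e-36). GLA, the alpha-galactosidase deficient in Fabry disease, had 10.6, 13.4 and 9.75 CPM against 18.4, 17.2 and 17.1 CPM, and rose 1.52-fold (log2 0.60, SE 0.08, adjusted p = 1.17e-10). In both genes the lowest siNPM1c library was above the highest siControl library.

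FUCA1, the tissue alpha-fucosidase, went from 6.62, 6.85 and 6.46 CPM to 9.18, 8.58 and 8.98 CPM, a 1.33-fold rise (log2 0.41, SE 0.11, adjusted p = 0.00104). NEU1, the lysosomal neuraminidase, which removes sialic acid, rose 1.15-fold from 45.7, 45.4 and 47.6 CPM to 55.4, 52.1 and 51.5 CPM (log2 0.20, SE 0.05, adjusted p = 0.000117). GUSB, the beta-glucuronidase, had 15.7, 19.9 and 16.9 CPM against 21.3, 20.3 and 20.1 CPM. The groups of GUSB were apart by a small margin (log2 0.21, SE 0.07, adjusted p = 0.0127), and the call was lost with the GC correction (0.14, adjusted p = 0.115), by DESeq2 (adjusted p = 0.0696), without siControl replicate 1 (adjusted p = 0.134) and without siControl replicate 3 (adjusted p = 0.0551). Without siControl replicate 2 the value of GUSB was 0.33 (adjusted p = 0.000446). Reads of GUSB can also fit its pseudogenes.

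GLB1, the beta-galactosidase, was the glycosidase that fell, and its groups overlapped. It had 21.2, 25.2 and 23.6 CPM (siControl) and 19.0, 21.1 and 22.2 CPM (siNPM1c) (log2 -0.18, SE 0.07, adjusted p = 0.0254). The call was lost by DESeq2 (adjusted p = 0.169), and when siControl replicate 2 (-0.11, adjusted p = 0.292), siNPM1c replicate 1 (-0.12, adjusted p = 0.197) or siNPM1c replicate 2 (adjusted p = 0.0657) was left out. MAN2B1, the alpha-mannosidase, was abundant and close to level, with 130.2, 136 and 134 CPM against 135, 128 and 125 CPM (log2 -0.05, 95% interval -0.11 to 0.01). MAN2B1 was called as lower with the GC correction (-0.13, adjusted p = 3.5e-05) and with a filter of 5 CPM (-0.07, adjusted p = 0.0333). Its value was -0.03 without siControl replicate 2 (adjusted p = 0.515) and -0.02 without siNPM1c replicate 3 (adjusted p = 0.613). HEXA, the alpha subunit of hexosaminidase, had a log2 fold change of 0.04 (-0.08 to 0.17), NAGLU, which acts on heparan sulphate, 0.055 (-0.11 to 0.22) and MANBA, the beta-mannosidase, -0.18 (-0.41 to 0.05). The value of MANBA was -0.097 with the GC correction (adjusted p = 0.542) and -0.11 without siNPM1c replicate 3 (adjusted p = 0.561).

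Of the 4 sulfatases, which remove sulphate groups from glycolipids and glycosaminoglycans, 3 rose, beside 21.3% of all tested genes. ARSA, the arylsulfatase deficient in metachromatic leukodystrophy, had 36.9, 36.4 and 34.7 CPM (siControl) and 50.02, 52.0 and 49.8 CPM (siNPM1c), and rose 1.41-fold (log2 0.49, SE 0.05, adjusted p = 4.83e-19). ARSB, which acts on dermatan sulphate, went from 13.2, 12.9 and 13.6 CPM to 21.4, 20.1 and 18.3 CPM, a 1.51-fold rise (log2 0.59, SE 0.08, adjusted p = 5.87e-12). SGSH, the heparan N-sulfatase, had 19.0, 19.5 and 16.4 CPM against 23.9, 24.1 and 22.4 CPM and rose 1.28-fold (log2 0.35, SE 0.07, adjusted p = 3.87e-06). The groups were apart in all 3 genes.

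IDS, the iduronate sulfatase deficient in Hunter syndrome, differed from them in direction. Its level was 11.8, 11.9 and 10.4 CPM (siControl) and 10.3, 10.3 and 9.32 CPM (siNPM1c) (log2 -0.19, SE 0.09, adjusted p = 0.0889). IDS was called as lower with the GC correction (-0.23, adjusted p = 0.0381), with a filter of 5 CPM (adjusted p = 0.0463) and without siControl replicate 3 (-0.25, adjusted p = 0.0449). Reads of IDS can also fit its nearby pseudogene.

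Of the 6 lipid-degrading enzymes and activators, PSAP alone was called, beside 42.7% of all tested genes. It encodes the precursor of the saposins, which present sphingolipids to their hydrolases. It stood at 149, 153 and 148 CPM (siControl) and 169, 159 and 160.1 CPM (siNPM1c), a 1.08-fold rise (log2 0.11, SE 0.03, adjusted p = 0.000399) that was lost with the GC correction (0.05, adjusted p = 0.0964). LIPA, the acid lipase that frees cholesterol from its esters, had a log2 fold change of 0.14 (95% interval 0.01 to 0.28, adjusted p = 0.0883), and was called as higher with the GC correction (0.29, adjusted p = 0.000172) and without siControl replicate 3 (0.20, adjusted p = 0.0245). Without siControl replicate 1 the value of LIPA was 0.078 (adjusted p = 0.429). The acid sphingomyelinase gene SMPD1 (-0.08, -0.24 to 0.07), the acid ceramidase gene ASAH1 (-0.08, -0.25 to 0.08), the ganglioside activator gene GM2A (0.05, -0.13 to 0.22) and the thioesterase gene PPT1 (0.01, -0.21 to 0.23) were not called. ACP2, the lysosomal acid phosphatase, was not called either (-0.07, -0.29 to 0.15).

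The membrane proteins went in both directions, with 2 of 5 tested higher and 1 lower, beside 21.3% and 21.4% of all tested genes. SCARB2, a membrane protein that acts as a sorting receptor for the lysosome, had 11.3, 11.9 and 10.5 CPM (siControl) and 16.9, 16.3 and 15.1 CPM (siNPM1c). It rose 1.43-fold (log2 0.51, SE 0.08, adjusted p = 4.64e-08), with groups apart. CLN3, a membrane protein lost in juvenile neuronal ceroid lipofuscinosis, went from 24.2, 22.2 and 24.3 CPM to 24.8, 28.98 and 26.5 CPM (log2 0.21, SE 0.06, adjusted p = 0.00445). The call of CLN3 was lost by DESeq2 (adjusted p = 0.0585), with the GC correction (0.13, adjusted p = 0.0969), and when replicate 2 of siControl (0.15, adjusted p = 0.0725) or of siNPM1c (0.14, adjusted p = 0.142) was left out.

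LAMP1 and LAMP2 are the heavily glycosylated proteins that line the inner face of the membrane and are used as markers of how much lysosome a cell holds. LAMP2 had 34.4, 32.8 and 34.9 CPM (siControl) and 28.96, 31.1 and 29.5 CPM (siNPM1c), and fell by 0.18 on the log2 scale (SE 0.06, adjusted p = 0.00559). Its transcripts had the lowest GC content of the list (40.4%), and with the GC correction its log2 fold change was 0.02 (adjusted p = 0.785). By DESeq2 its adjusted p was 0.0506. LAMP1 had 47.9, 49.5 and 46.7 CPM against 46.2, 45.1 and 43.9 CPM. The groups of LAMP1 were apart, with a log2 fold change of -0.10 (SE 0.05, adjusted p = 0.0788), and LAMP1 was called as lower with the GC correction (-0.16, adjusted p = 0.00229), with upper-quartile factors (adjusted p = 0.0387), with no filter beyond 1 count (adjusted p = 0.0441) and with the filter of 5 CPM (adjusted p = 0.0219). Neither gene was higher, in the same libraries in which the hydrolase genes CTSB, GAA and ARSA rose. MCOLN1, the lysosomal calcium channel mucolipin 1, had overlapping groups of 4.13 to 5.28 CPM and 5.00 to 6.23 CPM (log2 0.30, SE 0.14, adjusted p = 0.0731). It was called as higher without siControl replicate 3 (0.41, adjusted p = 0.0251) and without siNPM1c replicate 3 (0.36, adjusted p = 0.0499), and was 0.18 without siNPM1c replicate 2 (adjusted p = 0.428).

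Genes of the lysosome outside the list were called in both directions. Of 31 tested lysosomal enzymes and cofactors outside the 40, 4 rose and 3 fell (median log2 fold change -0.02). Both shares were below those over all tested genes, 21.3% higher and 21.4% lower. IFI30, a thiol reductase of antigen processing that interferon gamma induces, rose the most by p (log2 0.92, SE 0.08, adjusted p = 1.24e-21), followed by the phospholipase gene PLA2G15 (0.24) and the sulfatase gene GALNS (0.27). The hyaluronidase gene HYAL2 fell by 0.32 and GALC, the galactosylceramidase gene, by 0.29. Both calls rest on little: DESeq2 gave HYAL2 an adjusted p of 0.159 and GALC 0.173. The call of HYAL2 was lost without siControl replicates 1 or 2 or siNPM1c replicates 2 or 3 (adjusted p = 0.0633, 0.198, 0.102 and 0.141). That of GALC was lost without siControl replicates 1 or 3 or siNPM1c replicates 1 or 2 (adjusted p = 0.197, 0.066, 0.131 and 0.171). The difference between the 40 genes and this or any further list was not tested, and the 40 were put together with results of these data known.

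Of 28 tested further membrane proteins, 10 rose and 7 fell (median 0.06), both above the shares of all tested genes (21.3% and 21.4%). The cationic amino acid exporter gene SLC66A1 rose by 0.66 (SE 0.05, adjusted p = 7.2e-32), and the glycoprotein genes CD63 and CD68, the latter a macrophage marker, by 0.45 and 0.48. MFSD1 fell by 0.48, the arginine sensor gene SLC38A9 by 1.19 from 1.84 to 0.824 CPM, and MFSD8 by 1.22 from 1.35 to 0.574 CPM. For the proton pump that acidifies the organelle, 3 of 18 tested genes rose and 3 fell (median -0.00), both below these shares. TCIRG1, ATP6V0A1 and ATP6V0D1 of the membrane sector rose by 0.15, 0.40 and 0.31, while ATP6V0B of the same sector and the accessory subunit genes ATP6AP1 and ATP6AP2 fell by 0.28, 0.26 and 0.40. With the GC correction TCIRG1 (0.04, adjusted p = 0.13) and ATP6AP2 (-0.22, adjusted p = 0.124) were not called, nor was ATP6AP2 without siNPM1c replicate 3 (-0.26, adjusted p = 0.1).

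For sorting to the lysosome, 6 of 27 tested genes rose and 6 fell (median 0.02), near the shares of all tested genes (21.3% and 21.4%). GNPTG, a subunit of the enzyme that adds the mannose 6-phosphate tag, rose by 0.50 (SE 0.09, adjusted p = 1.96e-07), and the adaptor genes AP3D1 and AP1B1 by 0.22 and 0.19. The sorting receptor gene SORL1 fell by 0.64 (SE 0.09, adjusted p = 5.3e-11), the adaptor gene AP1G1 by 0.48 and CLN6 by 0.44.

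In the list of mTORC1 and MiT/TFE genes, 7 of 18 tested rose and 4 fell (median 0.05). Over all tested genes 21.3% rose and 21.4% fell, so the share that fell was near that of all genes. LAMTOR4, of the Ragulator complex that anchors mTORC1 to the lysosome, rose 1.78-fold from 32.0 to 57.1 CPM (log2 0.83, SE 0.05, adjusted p = 9.48e-41). FLCN, the folliculin gene, whose product lets mTORC1 restrain TFEB and TFE3, rose by 0.40 (SE 0.04, adjusted p = 2.4e-17), and RPTOR, the mTORC1 scaffold gene, by 0.22. The Rag GTPase gene RRAGA fell by 0.55, TSC1 by 0.45 and the kinase gene MTOR by 0.22. With DESeq2, 4 genes of this list were called as higher, beside 2077 of all 12938 genes tested. Among 25 tested autophagy genes 4 rose and 5 fell (median -0.06), both below the shares of all tested genes. SQSTM1, the cargo receptor p62, rose 1.55-fold from 127 to 196 CPM (log2 0.63, SE 0.03, adjusted p = 6.42e-59), UVRAG by 0.49 and OPTN by 0.31, and ATG13 fell by 0.38, TAX1BP1 by 0.68 and PIK3C3 by 0.51, the last not called with the GC correction (-0.28, adjusted p = 0.0643).

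**Figure D4:**
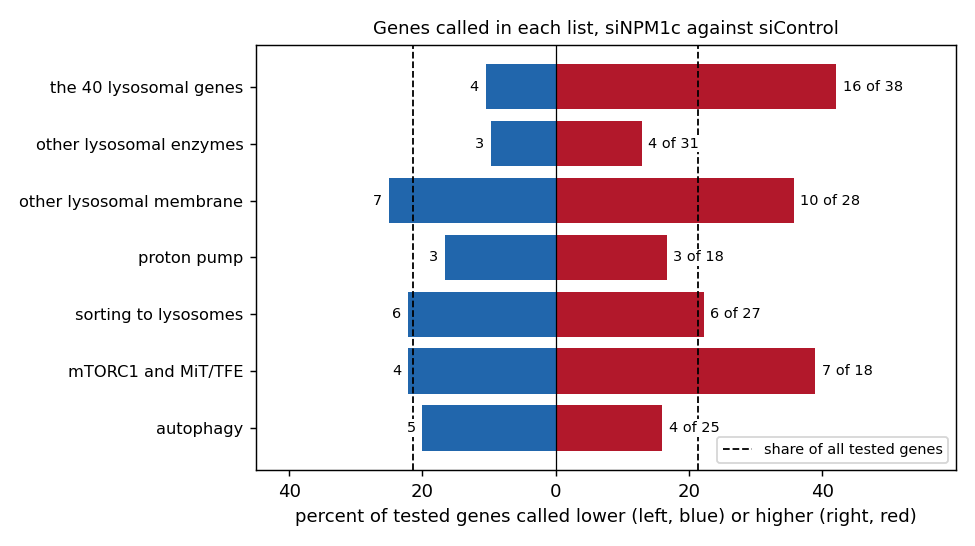
Percent of the tested genes of 7 lists that were called lower (left, blue) or higher (right, red) in siNPM1c against siControl libraries, with the number called and tested beside each bar and the share of all tested genes (21.4% lower, 21.3% higher) as dashed lines. The 40 lysosomal genes reach 16 of 38 higher, and the other lysosomal enzymes 4 of 31.

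Cystatins, the inhibitors of cysteine cathepsins, moved apart. CST3, the secreted cystatin C, rose by 0.30 (SE 0.03, adjusted p = 7.45e-22) from 146 to 181 CPM, while CSTA fell by 0.82 and CST7, which restrains cathepsin C, by 0.58. Genes of MHC class II, for which cathepsins S and L process the invariant chain, were nearly silent, with 2 of 10 tested. One of these, CD74, the invariant chain gene, rose by 0.37 (SE 0.08, adjusted p = 1.92e-05). With library sizes alone the rises of PLA2G15, GALNS, CD63, TCIRG1, ATP6V0A1, ATP6V0D1, AP3D1, AP1B1, FLCN, RPTOR, OPTN, CST3 and CD74 turned negative.

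Markers of myeloid cells also differed between the groups, and those of monocytes went in both directions. Over all tested genes, with which the counts of markers are to be compared, 21.3% were higher and 21.4% lower. The summed level of 16 monocyte and macrophage markers was 262 to 272 CPM in the siControl libraries and 632 to 654 CPM in the siNPM1c libraries, with 7 of 13 tested higher and 4 lower, and FCGR3A, MRC1 and MSR1 at or near 0. LYZ, the lysozyme gene, at 80.2 CPM in the siControl and 401.5 CPM in the siNPM1c libraries on average, made up most of the difference in that sum. CSF1R rose by 2.03 on the log2 scale, while CD86 fell by 1.77, CX3CR1 by 1.57, VCAN by 0.72 and FCN1 by 0.67. The sum of 12 granulocyte markers was 715 to 742 CPM and 987 to 998 CPM, with 7 of 7 tested higher and CEBPE, LTF, CAMP, MMP8 and FCGR3B at or near 0. Their part in the lysosomal result was not tested. Of 9 markers of leukaemic blasts, 4 of 7 tested rose and 1 fell, with sums of 336 to 343 CPM and 362 to 372 CPM, and KIT and CD34 of the blast list did not pass the filter. Markers of erythroid cells and megakaryocytes (12.8 to 14.0 and 13.6 to 15.5 CPM summed, nearly all EPOR), of lymphoid cells (1.49 to 2.28 and 1.28 to 2.90 CPM) and of stroma (0.833 to 1.19 and 0.903 to 1.73 CPM) had 0 genes called in 2, 1 and 1 tested. HBB, HBG1, PF4, GP9 and CD3D were at 0 in all 6 libraries.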

How the data were processed

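One table was deposited, with the authors' unnormalized read counts for each Entrez gene in 6 libraries; that they are raw follows from the values, whole numbers with unequal totals. Per the submitters' processing notes the tools included STAR 2.7.5a, cutadapt 2.6, DESeq2 1.34.0 and CASAVA 1.8, and the builds hg38 and mm10, with no roles given. The counter, its annotation, strand setting and handling of reads with several matches are not given in the sources used here, so that reads of genes with pseudogenes or opposite-strand partners may be split or merged. Symbols were found for 28261 of 28307 genes in NCBI RefSeq tables (GRCh38.p14).

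The test was run with edgeR 4.0.16 (R 4.3.3): filterByExpr (minimum count 10, minimum total 15), TMM, glmQLFit with robust = TRUE and glmQLFTest on group alone, two-sided. The SE of a log2 fold change is its size over the root of F, and 95% intervals are normal. CPM SDs are over 3 libraries and are in the plots. GC content and lengths are those of GENCODE 29 transcripts. Pairs of libraries within a group differed by more than sampling noise (chi-square per degree of freedom 1.46 to 2.36). The fit was run on simulated counts, where it recovered 21 of 49 genes changed 1.25-fold and 40 of 49 changed 1.5-fold, with 9 false calls. These counts had the same spread setting for every gene and no shift in structural RNA. They therefore do not test the scaling, and a gene that is not called may still have a small change.

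The members and the 21 gene lists were chosen with earlier results of these data known. Members called with groups that did not overlap, and TFEB, TFE3, LAMP1, LAMP2 and GRN, were given per library (GLB1, IDS and MAN2B1 were added after their values were seen), and of each further list up to 3 called genes with the smallest p in each direction were named (some genes of these lists are not reported here). Alternatives were other scalings, filters and tests (DESeq2 1.42.0, limma-voom 3.58.1), a lowess GC offset (span 0.3), the replicate number as a block, and leaving out each library.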

Additional observations from a re-analysis of the deposited data

How the results depend on the processing

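The members' count of 16 higher and 4 lower was 15 to 18 and 3 to 5 when 1 library was left out, with a median log2 fold change of 0.0624 to 0.1105, and the counts over all genes were then 2435 to 2675 higher and 2196 to 2579 lower. With library sizes alone 505 genes were higher and 9253 lower over all genes, and 2 and 28 among the members, whose median was -0.38. The members' median was 0.0771 with upper-quartile factors, 0.11 with protein-coding genes only, 0.0537 with the filter of 5 CPM, 0.0846 with the GC correction and 0.084 with it and the replicate block. The number of members lower was 7 of 37 tested with the filter of 5 CPM. It was 7 of 38 with the GC correction, and also with the replicate block added. DESeq2 called 2 of 38 members lower, and 1754 of 12938 over all genes. Over all genes 2120 were lower with the filter of 5 CPM, 2552 with the GC correction and 2577 with it and the replicate block. The filter of 5 CPM left fewer genes to test, and the GC correction kept 97.1% of the 12938. Same-numbered libraries did not deviate together (correlations -0.004 to 0.019), which gave no sign that the numbers pair them. Counting noise pulls such correlations toward 0, so a shared culture or preparation is not excluded. With the replicate block alone 16 members were higher and 4 lower, and over all genes 2793 and 2793.

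With library sizes alone the log2 fold change turned negative for CTSA (-0.39), CTSD (-0.18), CTSS (-0.42), CTSZ (-0.36), GAA (-0.0771), GUSB (-0.26), HEXA (-0.42), NEU1 (-0.27), NAGLU (-0.41), FUCA1 (-0.0559), SGSH (-0.11), LIPA (-0.33), PSAP (-0.36), GM2A (-0.42), PPT1 (-0.46), CLN3 (-0.27), MCOLN1 (-0.17), TFE3 (-0.14), GRN (-0.14), PLA2G15 (-0.23), GALNS (-0.20), CD63 (-0.0149), TCIRG1 (-0.32), ATP6V0A1 (-0.0729), ATP6V0D1 (-0.16), AP3D1 (-0.25), AP1B1 (-0.28), FLCN (-0.0698), RPTOR (-0.25), OPTN (-0.16), CST3 (-0.17) and CD74 (-0.10). Structural RNA is part of the depth in that setting. GLA, ARSA, ARSB and SCARB2 stayed above 0 there but were not called. With the GC correction the sign turned for CTSA (-0.0035), NAGLU (-0.0448), ASAH1 (0.0817) and LAMP2 (0.0221), and with the replicate block added for CTSA (-0.0049), NAGLU (-0.0467), ASAH1 (0.0803) and LAMP2 (0.0225). PPT1, which was close to 0, was -0.0097 with upper-quartile factors, -0.0178 with no filter beyond 1 count, -0.0145 with the filter of 5 CPM and -0.0015 by limma-voom. The sign of PPT1 (-0.0404 to 0.0906), NAGLU (-0.0359 to 0.16), GM2A (-0.0053 to 0.11), CTSH (-0.18 to 0.0571) and ACP2 (-0.18 to 0.019), none of them called, depended on the library left out. The causes of the other changes were not tested. At 38 to 107 counts per library the value of CTSL rests on few reads, and no level can be given for LGMN and ACP5.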

Other observations

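The promoters were also searched for the AP-1 site, which gave a side result outside the lysosomal genes. The AP-1 site TGACTCA (or TGAGTCA on the other strand) stood in the promoters of 473 tested genes, of which 29.2% rose and 16.3% fell after the NPM1c siRNA, with a median log2 fold change of 0.04. Of the 9722 tested genes with a promoter but without the site, 20.5% rose and 22.3% fell, with a median of -0.02. The site was found in 4.95% of all promoters and in 1 of the 29 lysosomal genes with an entry, TFE3. These shares are descriptions without a test, and GC content was not matched.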
